A study of Homo sapiens with 47 samples.

Results

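The P5 mesenchymal (MES) fraction of a human embryonic stem cell differentiation was compared, gene by gene, with the undifferentiated cells it came from, the time point t0. The members were chosen by label and replicate number: 3 P5 MES libraries and 3 t0 libraries, which are 6 of the 47 bulk mRNA libraries of the series. The question was which whole-transcriptome program separates crest-like mesenchyme from pluripotent cells. All libraries came from WA09, an established human embryonic stem cell line kept feeder-free on Matrigel in mTESR1, and t0 is that line before any differentiation factor. To differentiate, the cells were moved to N2B27 medium without vitamin A, supplemented with the WNT agonist CHIR-99021, rhFGF2, the retinoic acid receptor inhibitor AGN193109 and the ROCK inhibitor Y-27632. They passed through a neuromesodermal progenitor (NMP)-like state at 36 h and were then passaged every 3 to 4 days in the same factors. At passage 5, selective detachment with TrypLE divided the culture into the MES fraction, labelled as neural crest, and an epithelial (EPI) fraction of pre-neural progenitors. Both fractions were enriched and not pure, and all cells were of 1 line. The medium, the factors, the passages and the detachment all differed between t0 and P5 MES, so their parts cannot be told apart. Per the labels, each replicate number marks 1 of 3 separate differentiations, and all 3 contributed to the groups compared here.

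Neural crest forms at the border of the neural plate, where cells under WNT, BMP and FGF signals switch on border genes and then crest specifiers. These cells leave the epithelium through an epithelial to mesenchymal transition, in which E-cadherin junctions and apical proteins are lost and a fibrous matrix, intermediate filaments and guidance receptors are gained. Pluripotent stem cells are themselves a tight epithelium, held in place by the POU5F1, NANOG and SOX2 network, and carry nearly silent *HOX* clusters, which open in order along the body axis as posterior cells form.

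The t0 libraries held 43326535, 44499847 and 57041480 expected counts in replicates 1, 2 and 3, and the P5 MES libraries 48535989, 46558218 and 47189307. Levels are given as TPM, RSEM's relative measure of transcripts corrected for gene length, or as normalized counts, which are expected counts scaled for library size and composition. Changes are log2 fold changes of P5 MES minus t0 from edgeR's quasi-likelihood fit with the replicate number as a block, written with their standard error (SE), and a gene passed when its Benjamini-Hochberg false discovery rate (FDR) was under 1%, its change at least 2-fold and its mean over the 6 libraries at least 100 normalized counts. The words rose and fell are kept for genes that passed. In bulk samples, fewer cells of a type and less RNA per cell cannot be told apart, and a level near 0 is limited by a smallest count of 3 per library.

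Of 19272 genes tested, 3893 passed, which is 20.2% of them. The split was uneven, with 1753 genes higher in P5 MES (9.1%) and 2140 lower (11.1%), while the median change over all tested genes was -0.03. Protein-coding genes made up 1579 of the rises and 1980 of the falls, out of 15170 tested. Among 2621 long noncoding genes, 118 rose and 109 fell, and among 1120 pseudogenes 37 rose and 41 fell. Falls outnumbered rises at larger sizes too: at least 4-fold changes were counted in 739 rising and 1209 falling genes, and at least 32-fold changes in 236 and 354. For these counts a gene with 3 counts or fewer in every library of 1 group was placed at the smallest fold that 3 counts per library allow, which touched 51 rising and 90 falling genes. Past 256-fold, 77 genes rose and 61 fell.

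**Figure D1:**
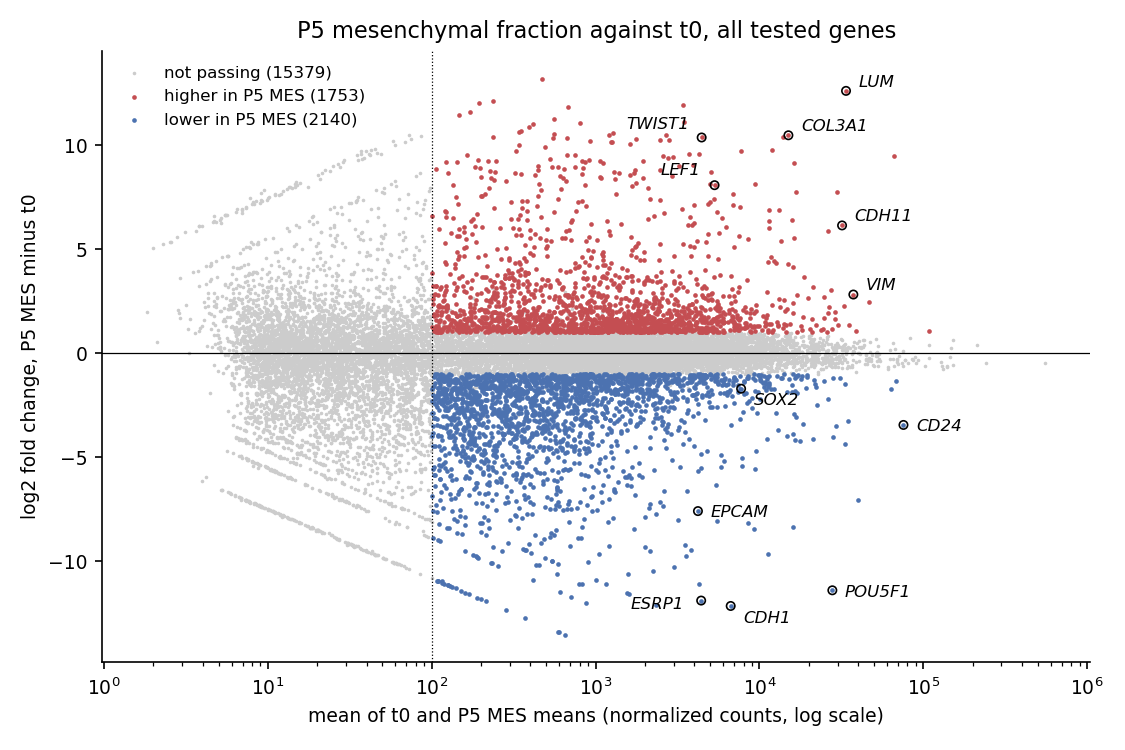
Each point is 1 of 19272 tested genes, with the mean of the t0 and P5 MES levels in normalized counts on a log scale against the log2 fold change of P5 MES minus t0. Red points are the 1753 genes that rose, blue points the 2140 that fell and gray points the rest, the dotted line marks a mean of 100 normalized counts, and circled genes run from *LUM* at 12.61 to *CDH1* at -12.15.

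Marker genes were checked first against the labels. The pluripotency factor *POU5F1* stood at 1749, 1569 and 1590 TPM in t0 replicates 1, 2 and 3 and at 0.7, 0.68 and 0.66 TPM in P5 MES. E-cadherin, *CDH1*, stood at 165.7, 165.2 and 126.0 TPM in t0 and at 0.04, 0.25 and 0.09 TPM in P5 MES. *TWIST1*, a transcription factor of crest and mesenchyme, went the other way, with 0.23, 0.07 and 0.22 TPM in t0 and 300.7, 200.3 and 275.9 TPM in P5 MES. The groups did not overlap for any of these genes, and the 6 libraries stood on the side their labels give. A limit on the crest label came from *SOX10*, the factor of migrating crest, which had 1.63, 2.2 and 1.83 TPM in t0 and 3.69, 7.67 and 24.1 TPM in P5 MES. Its change was 1.81 with an SE of 0.49 and an adjusted p of 0.013 (edgeR quasi-likelihood, Benjamini-Hochberg; higher in 3 of 3 pairs), so it missed the 1% threshold, which it passed with no low-count filter (edgeR, 1.84, adjusted p 0.0033) and in DESeq2 at an adjusted p of 0.00024.

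The genes with the largest rises were mostly absent at t0. *LUM* (ENSG00000139329), which encodes the proteoglycan lumican, had 0.37, 0.3 and 0.62 TPM in t0 and 1199, 2648 and 2449 TPM in P5 MES, a rise of 12.61 with an SE of 0.83. It was also the largest rise in TPM. *KERA*, for keratocan, had 26.6, 28.3 and 25.6 TPM in P5 MES against 1 count in the 3 t0 libraries together, a ratio of 4005 (95% counting interval 719 to 158184), and *DCN*, for decorin, rose by 11.92 to a mean of 210 TPM (SD 104, n = 3). All 3 encode small leucine-rich proteoglycans that bind collagen fibrils, and they lie side by side on chromosome 12, at chr12:91050491-91183123 in GENCODE 29 on GRCh38. *EPYC*, for epiphycan, of the same protein family and their neighbor at chr12:90963679-91005026, was looked up after these values were seen and had at most 0.08 TPM in any P5 MES library, too few counts to be tested. The rise did not extend to this neighbor.

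Other large rises had no counts in any t0 library: *ABCA9*, for a lipid transporter of the ABC class, was at least 336-fold higher, the integrin subunit gene *ITGA8* at least 170-fold, the processed pseudogene *AC089987.1* at least 138-fold, and *AL356309.3*, an entry of unsettled type, at least 104-fold. The homeobox gene *EN1* had 30.7, 22.0 and 8.33 TPM in P5 MES and 1 count in all t0 libraries together, a ratio of 3280 (95% counting interval 589 to 129573). *GRIN3A*, for a glutamate receptor subunit, was uneven, with 54.1, 4.68 and 60.1 TPM in P5 MES. The remaining gene of the 10 largest rises was a *HOX* gene and is counted with that family.

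Falls of the same size took genes to or near 0. No count was found in any P5 MES library for *IDO1*, for a tryptophan-degrading enzyme, which was at least 452-fold lower, *C13orf42*, which was at least 416-fold lower, or the epithelial transcription factor gene *GRHL2*, which was at least 410-fold lower. The same held for the noncoding RNAs *HPAT5*, at least 259-fold lower, and *LINC02570*, at least 197-fold lower, and for *KDF1*, a keratinocyte differentiation gene, at least 150-fold lower. The noncoding RNA *LINC00678* kept 3 counts over the 3 P5 MES libraries and was 5039-fold lower by the ratio of means (95% counting interval 1724 to 24433). *AC009446.1* kept 1 count, for a ratio of 5396 (968 to 213128). The splicing regulator gene *ESRP1* kept 7 counts, for a ratio of 3995 (1939 to 9936). These intervals and bounds cover counting error only.

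By change in TPM, the largest falls were in *CD24*, *POU5F1*, *AC106864.1*, *HMGA1* and *MFGE8*. *CD24*, for a surface glycoprotein, went from a mean of 2827 TPM (SD 241, n = 3) to 275 TPM (SD 83.1), and *MFGE8*, for a secreted glycoprotein, from 791 TPM (SD 51.8) to 79.2 TPM (SD 3.23). *HMGA1*, for a chromatin architecture protein, fell by 1.36 from a mean of 2087 TPM and still stood at 888 TPM (SD 22.8). *POU5F1*, *CD24* and *HMGA1* have near copies elsewhere in the genome, and reads of a copy may be counted with them. The long noncoding gene *AC106864.1* (ENSG00000249532) had 1355, 1144 and 1360 TPM in t0 and 0.6, 0.45 and 0.4 TPM in P5 MES. It lies at chr4:112646476-112650051 on the minus strand, and all 5 hairpins of the miR-302 and miR-367 cluster, long known from pluripotent cells, fall inside it. Their 3p forms are shown because the transcript that spans them was the 1 noncoding gene among the 5 largest falls in TPM. They are RefSeq sequences (GRCh38.p14, minus strand) with the seed, bases 2 to 8, in capitals.
hsa-miR-302a-3p: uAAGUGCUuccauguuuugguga
hsa-miR-302b-3p: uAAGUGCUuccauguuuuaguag
hsa-miR-302c-3p: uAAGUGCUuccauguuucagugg
hsa-miR-302d-3p: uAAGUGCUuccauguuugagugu
hsa-miR-367-3p: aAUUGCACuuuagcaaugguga
The 4 miR-302 forms share 1 seed. Mature miRNAs were not measured in these libraries. The gene sits inside the protein-coding gene *LARP7* on the opposite strand, whose level, looked up afterwards, had a mean of 52.1 TPM in t0 (SD 5.52, n = 3) and 72.6 TPM in P5 MES (SD 4.19). The strand setting of the counts is not given in the sources used here, so values of overlapping genes are uncertain.

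Most listed pluripotency genes fell, some of them to near 0 and others only in part. All 30 genes of the list were tested; 20 fell, where 11.1% of all tested genes did, and the other 10 did not pass, 7 of them because their mean was under 100 normalized counts. The median change was -6.72, or -4.75 with genes near 0 placed at their bound, against -0.03 over all tested genes. The summed level of the list went from 10943 TPM (SD 682, n = 3) to 1423 TPM (SD 235). *POU5F1* fell by 11.39 with an SE of 0.16 and *NANOG*, the homeobox gene at the center of the network, fell by 9.49 with an SE of 0.47. *TDGF1*, for a Nodal co-receptor, fell by 9.64, *ZFP42*, for a zinc finger protein of the ground state, by 8.05, and *PODXL*, for a surface sialomucin used as a stem cell marker, by 7.06. *DPPA4*, a chromatin-bound pluripotency factor, fell by 4.21 and kept 48.17, 29.02 and 54.37 TPM in P5 MES.

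The third factor of the core network did not follow the others to 0. *SOX2*, which also marks neural progenitors, had 181.8, 173.2 and 192.8 TPM in t0 and 92.6, 71.5 and 32.8 TPM in P5 MES, a fall of -1.71 with an SE of 0.26. Every P5 MES library was below every t0 library, yet transcripts remained in all 3. Without replicate 2 the adjusted p of *SOX2* was 0.011 at a change of -1.83 (edgeR quasi-likelihood, Benjamini-Hochberg), just over the threshold. *LIN28A*, whose protein blocks let-7 maturation, fell by 1.74 to 386.4, 461.5 and 223.4 TPM from a t0 mean of 1065 TPM. Its paralog *LIN28B* did not pass, with a change of 0.3 and an SE of 0.16, and had means of 88.6 TPM in t0 and 119.5 TPM in P5 MES. The zinc finger factor *SALL4* changed by -0.73 and stayed under the 2-fold minimum.

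Most listed genes of the epithelial junction fell. All 33 were tested, 30 fell, 1 rose and 2 did not pass, with a median change of -6.43, or -6.33 at the bounds, where 11.1% of all tested genes fell. Their summed level went from 2722 TPM (SD 184, n = 3) to 419 TPM (SD 170), and 17, 18 and 12 of the genes were still at 1 TPM or more in P5 MES replicates 1, 2 and 3. *CDH1* fell by 12.15 with an SE of 0.22, from 13930, 15184 and 10920 normalized counts to 1.81, 4.91 and 1.95. *EPCAM*, for an epithelial adhesion molecule, fell by 7.59 and *CLDN6*, for a tight junction claudin, by 8.17 from a t0 mean of 511 TPM. *CLDN7*, for another claudin, kept 3 counts over the P5 MES libraries, a ratio of 2204 (95% counting interval 754 to 10685). *CRB3*, for an apical polarity protein, also kept 3 counts, a ratio of 343 (117 to 1665). The simple keratins fell less far: *KRT8* by 2.6 and *KRT18* by 2.54, with 16.3 and 24.8 TPM left in replicate 3, the lowest of the 3 MES libraries for both. The gene that rose was *DSP*, for the desmosomal plaque protein desmoplakin, with 35.9, 34.2 and 33.1 TPM in t0 and 204.6, 118.7 and 80.7 TPM in P5 MES. *DSC2*, for a desmosomal cadherin, was at similar levels in both groups (-0.29, SE 0.18, not passing). The 4 other desmosomal genes of the list were among those that fell.

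Regulators of the epithelial state were mostly low in count. The 12 genes of that list were all tested, 3 fell, 1 rose (9.1% of all tested genes rose and 11.1% fell) and 8 did not pass, and only 4 of the 12 reached a mean of 100 normalized counts. *GRHL2* and the paired splicing regulators *ESRP1* and *ESRP2* were those that fell, with *ESRP2* keeping 5 counts over the P5 MES libraries, a ratio of 1132 (485 to 3488). The riser was *CDX2*, a posterior homeobox gene placed on the list for its role in gut epithelium, which is taken up with the *HOX* genes.

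The promoters of the junction genes were searched for the letters CAGGTG, an E-box of the kind that SNAI and ZEB proteins bind, on both strands (CACCTG is its reverse complement), in RefSeq windows of 300 bases, 250 before and 50 after each start. The table held 27 promoters of 20 of the 33 junction genes, and 15 of those promoters, or 55.6%, had at least 1 match, where 20.6% of all 35116 promoters did. *CDH1* and *EPCAM* were among the junction genes without a promoter there, so the search does not cover them. Windows of the same gene can overlap, and counted by gene 14 of 20 had a match. The share by gene over all genes was not counted, so 14 of 20 cannot be set against the 20.6%, which is per promoter. More than 1 match was found in 7 of the 27 junction promoters and in 3.49% of all promoters. For comparison, 2 of 9 promoters of the epithelial regulators (22.2%), 3 of 37 promoters of the mesenchymal structural genes and 2 of 23 promoters of the mesenchymal transition regulators held the letters. *DSP*, the junction gene that rose, had 2 matches as well, and a promoter of *DSC2*, which did not pass, had 1. The 2 junction promoters with the most matches, 5 each, are printed below in the direction of transcription with every match in capitals, *CLDN7* from the minus strand of chr17:7262429-7262728 and *CRB3* from the plus strand of chr19:6464021-6464320 (GRCh38.p14).
CLDN7: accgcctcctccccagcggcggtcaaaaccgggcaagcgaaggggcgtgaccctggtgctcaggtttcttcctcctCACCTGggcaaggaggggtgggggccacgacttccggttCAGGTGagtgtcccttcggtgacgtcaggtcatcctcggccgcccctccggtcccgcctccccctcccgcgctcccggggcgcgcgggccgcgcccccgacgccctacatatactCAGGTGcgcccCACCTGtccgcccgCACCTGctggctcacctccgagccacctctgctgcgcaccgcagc
CRB3: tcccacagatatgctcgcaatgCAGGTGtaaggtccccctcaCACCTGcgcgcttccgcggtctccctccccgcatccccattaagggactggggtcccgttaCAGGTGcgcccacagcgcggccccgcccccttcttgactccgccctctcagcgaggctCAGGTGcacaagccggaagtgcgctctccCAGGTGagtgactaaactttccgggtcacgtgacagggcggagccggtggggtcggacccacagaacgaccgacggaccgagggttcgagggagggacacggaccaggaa
Only 33 of all promoters, 0.094%, held more than 4 matches. The other *CLDN7* window, at chr17:7263164-7263463, held 0. A match is a description of the letters, and binding was not measured.

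Most transcription factors of the mesenchymal transition rose. Of 13 listed regulators 12 were tested, 8 rose, 1 fell (9.1% of all tested genes rose and 11.1% fell) and 3 did not pass, with a median change of 4.13, and the summed level went from 80.2 TPM (SD 2.78, n = 3) to 1168 TPM (SD 115). *TWIST1* rose by 10.37 with an SE of 0.62 and *PRRX1*, a homeobox gene of limb and head mesenchyme, by 10.38 with an SE of 0.11, to 289.2, 368.3 and 375.5 TPM. *SNAI2*, for a repressor of E-cadherin typical of crest, had 0.69, 1.2 and 0.86 TPM in t0 and 79.6, 124.8 and 113.0 TPM in P5 MES. The zinc finger repressor genes *ZEB1* and *ZEB2* rose by 5.12 and 4.0, to means of 87.4 and 29.7 TPM. *SNAI1*, of the same family as *SNAI2*, had 25.04, 15.12 and 51.63 TPM in P5 MES and a t0 mean of 7.39 TPM. Its rise of 1.68 stood at an adjusted p of 0.0098 (edgeR quasi-likelihood, Benjamini-Hochberg; higher in 3 of 3 pairs), at the threshold itself, and it did not pass without replicate 1 (1.73), without replicate 2 (2.19) or without replicate 3 (1.22). Nor did it pass with no replicate block (1.93), with total counts only (1.65) or with only the compared libraries in the fit (1.76). *SNAI3*, the third family member, fell by 6.77 from a mean of 5.88 TPM.

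Genes of the neural plate border and of early crest were the other large gain. The list had 26 genes, 25 of them tested, of which 16 rose, 1 fell and 8 did not pass, with a median change of 4.41, or 4.0 at the bounds, where 9.1% of all tested genes rose. Among border genes, *MSX1* stood at 310.4, 342.2 and 408.9 TPM in P5 MES after a mean of 0.53 TPM in t0, *ZIC1* rose by 9.76 to a mean of 441 TPM, and *PAX3* by 7.63 to 50.3, 38.4 and 27.6 TPM. *TFAP2A*, for an AP-2 factor of ectoderm and crest, rose by 10.31, with 24.6, 46.6 and 88.2 TPM in the MES replicates, and its paralog *TFAP2B* went from 3 counts over the t0 libraries to 4.33, 7.03 and 19.6 TPM, a ratio of 1053 (95% counting interval 360 to 5104). Both AP-2 genes were lowest in replicate 1 and highest in replicate 3 of P5 MES, as was *SOX10*. *SOX9*, for a crest and cartilage factor, rose by 2.19 and *ETS1*, which the paper uses as a marker of cranial crest, by 1.86, to 98.3, 92.7 and 93.2 TPM. Neither passed without replicate 2, where *SOX9* changed by 2.09 and *ETS1* by 1.85, and *ETS1* also missed without replicate 3, at 1.82. By staining, the paper saw ETS1 protein in only a few mesenchymal cells, a measure unlike the bulk RNA level given here. The specifier that fell was *FOXD3*, a gene shared by pluripotent cells and crest, with 12.1, 10.6 and 13.1 TPM in t0 and 3.32, 3.14 and 7.96 TPM in P5 MES. It did not pass without replicate 1 (-1.33) or without replicate 2 (-1.32).

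Genes of later crest lineages went in both directions. Of 25 listed, 17 had enough counts to be tested, 3 rose (9.1% of all tested genes did), 4 fell (11.1% of all) and 10 did not pass, and the median change was -0.82. *MITF*, the regulator of pigment cells, rose by 3.86 to 8.88, 5.32 and 4.72 TPM, while the pigment matrix gene *PMEL* fell by 2.34 and *TYR*, for tyrosinase, had at most 0.08 TPM in any MES library. *EDNRA*, for the endothelin receptor of crest mesenchyme, rose by 2.47 and *EDNRB*, for the receptor of melanocyte and enteric precursors, fell by 2.02. Without replicate 2 neither endothelin receptor gene passed, at 2.02 for *EDNRA* and -1.41 for *EDNRB*. *EDNRA* also missed without replicate 3 (2.39), as *EDNRB* did without replicate 1 (-2.15) and with only the compared libraries in the fit (-1.96). Among receptors for growth factors, *GFRA1* rose by 3.04, and *RET* and *KIT* fell by 3.24 and 1.38. *NGFR*, whose protein is used to sort crest cells, did not pass, with 7.81, 8.83 and 9.52 TPM in t0 and 2.92, 24.9 and 10.1 TPM in P5 MES (-0.24, SE 0.59). The sign of that value was positive without replicate 1 (0.56) and with no replicate block (0.42).

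**Figure D2:**
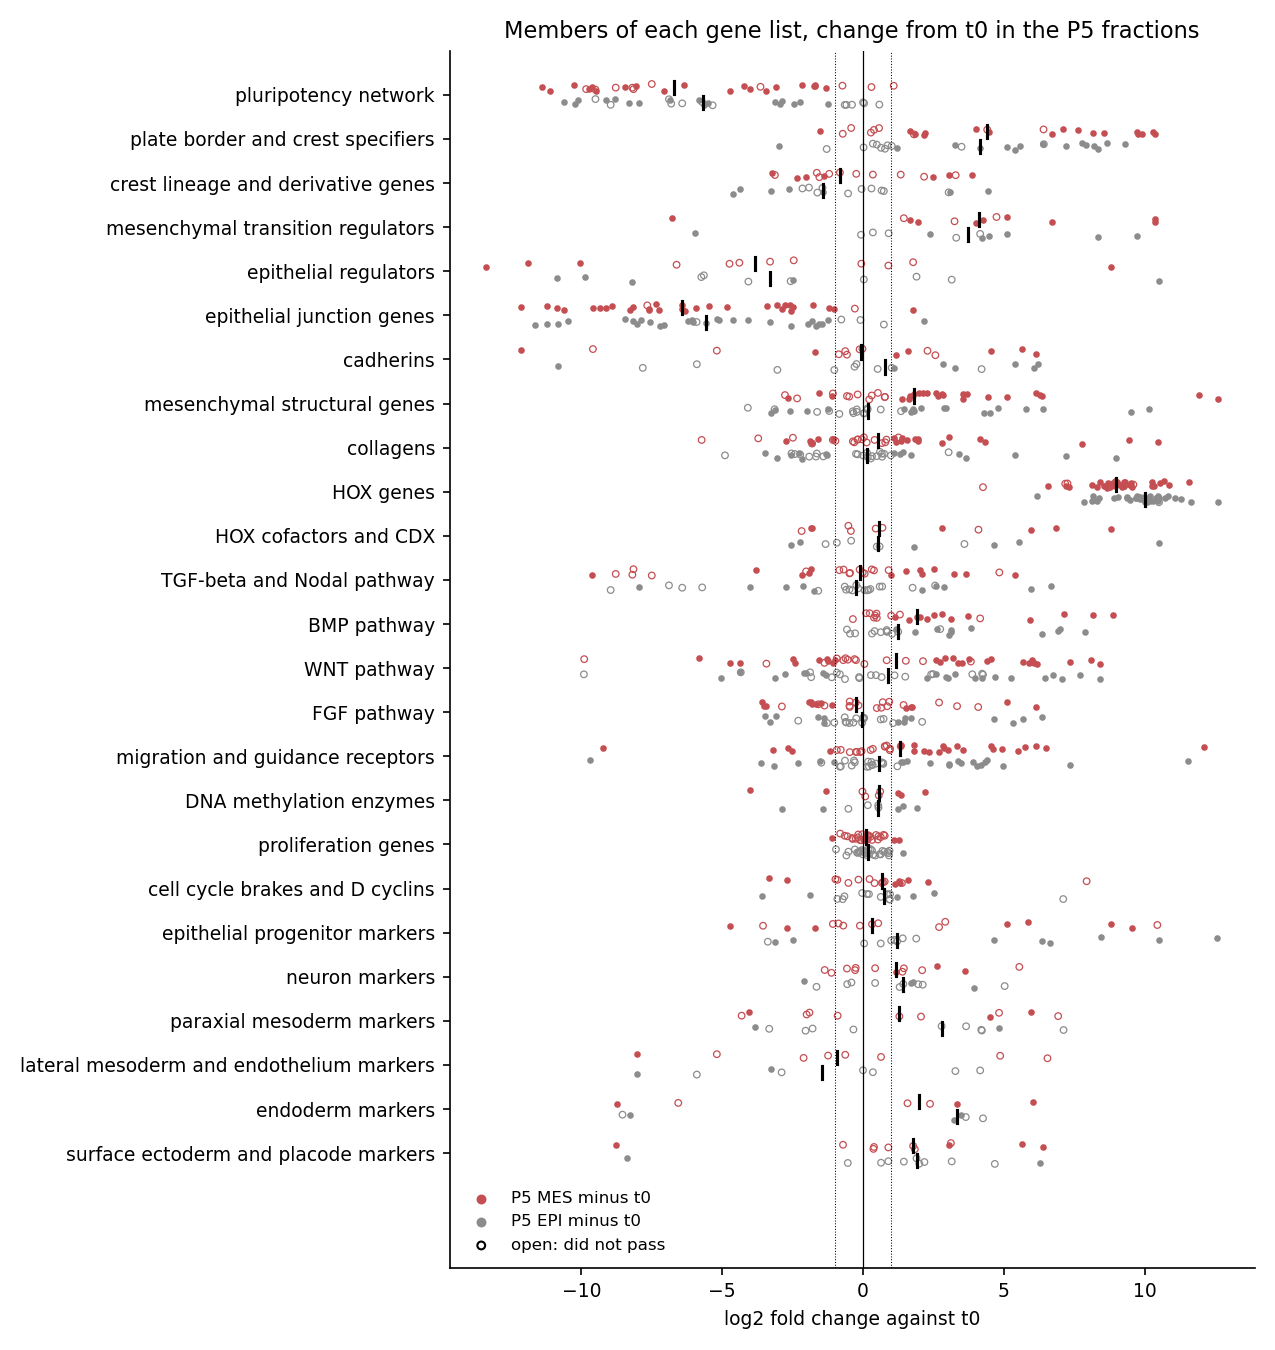
Each row is a gene list and each point a tested member, placed by its log2 fold change from t0 in the P5 MES fraction (red) and the P5 EPI fraction (gray), which share the t0 libraries. Filled points passed, open points did not, black bars are list medians and dotted lines mark 2-fold. For P5 MES the medians run from -6.72 for the pluripotency network to 8.97 for the *HOX* genes.

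Cadherins went in both directions. Of 19 listed, 16 were tested, 5 rose (*CDH2*, *CDH6*, *CDH11*, *CDH20* and *CDH24*) and 2 fell (*CDH1* and *CDH3*), where 9.1% of all tested genes rose and 11.1% fell. The other 9 did not pass, and the median change was -0.07. *CDH11*, the mesenchymal cadherin, went from 15.9, 13.5 and 14.5 TPM to 1214, 1135 and 1269 TPM, a rise of 6.14 with an SE of 0.19. *CDH6*, of premigratory crest, rose by 5.63 to 119.3, 130.8 and 124.7 TPM. N-cadherin, *CDH2*, rose less, by 1.59, to 153.5, 165.0 and 66.9 TPM, and *CDH20* rose by 4.56 to a mean of 6.74 TPM. *CDH3*, for P-cadherin, fell by 1.69 but was uneven in P5 MES, at 19.3, 64.4 and 23.0 TPM. *CDH24* did not pass without replicate 1 (0.92), nor did *CDH2* without replicate 1 (1.44) or without replicate 2 (1.28), and *CDH3* did not without replicate 1 (-1.22) or without replicate 3 (-1.64), nor with no replicate block (-1.38). The summed cadherin level was 319 TPM in t0 (SD 28.96, n = 3) and 1543 TPM in P5 MES (SD 22.0).

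The matrix and cytoskeleton of mesenchyme rose in most listed genes. All 35 were tested, 21 rose, 3 fell (9.1% of all tested genes rose and 11.1% fell) and 11 did not pass, with a median change of 1.8, and their summed level went from 2124 TPM (SD 45.9, n = 3) to 10932 TPM (SD 2192). *VIM*, for the intermediate filament vimentin, had 188.4, 170.0 and 212.5 TPM in t0 and 2299, 1246 and 1067 TPM in P5 MES. *SPARC*, for a collagen-binding matricellular protein, rose by 2.28 to 1631, 3300 and 1220 TPM, and *FN1*, for fibronectin, by 2.6 to 167.9, 182.9 and 176.3 TPM. The contractile genes *ACTA2* and *TAGLN* rose by 6.27 and 3.71, the growth factor receptor genes *PDGFRA* and *PDGFRB* by 6.16 and 3.55, and the protease inhibitor gene *TIMP3* by 6.35. Some well-known mesenchymal surface and calcium-binding genes went down, *THY1* by a fall of -2.66, *CD44* by -1.57 and *S100A4* by -1.1. Neither *CD44* (-1.17) nor *S100A4* (-0.93) passed without replicate 2, nor without replicate 3 (-1.5 and -1.07), and *CD44* did not with only the compared libraries in the fit (-1.59), whereas *THY1* passed throughout.

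Collagen genes differed from chain to chain. Of 41 listed genes 38 were tested, 15 rose, where 9.1% of all tested genes did, 5 fell, where 11.1% of all did, and 18 did not pass, with a median change of 0.54, and their sum went from 744 TPM (SD 34.8, n = 3) to 3481 TPM (SD 640). *COL3A1*, for a fibrillar collagen of soft tissue, had 0.28, 0.23 and 0.15 TPM in t0 and 209.3, 340.7 and 258.9 TPM in P5 MES. *COL6A3*, for a chain of beaded filaments, rose by 9.46 to 649.3, 744.9 and 628.1 TPM, *COL12A1*, for a fibril-associated collagen, by 7.77, and *COL2A1*, the cartilage collagen gene, by 4.34. The chains of type I collagen differed: *COL1A2* rose by 3.05 to a mean of 421 TPM (SD 74.7, n = 3), while *COL1A1* had 29.2, 29.5 and 26.1 TPM in t0 and 56.4, 36.0 and 20.5 TPM in P5 MES (0.13, SE 0.33, not passing; -0.39 without replicate 1). Of the type IX genes *COL9A1* and *COL9A3* fell by 2.72 and 1.6, and the third one rose. *COL1A2* did not pass without replicate 2 (2.93), nor did *COL9A3* without replicate 1 (-1.55) or replicate 2 (-1.24). The number of falling collagens was 3 without replicate 1, 1 without replicate 2 and 3 without replicate 3.

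**Figure D3:**
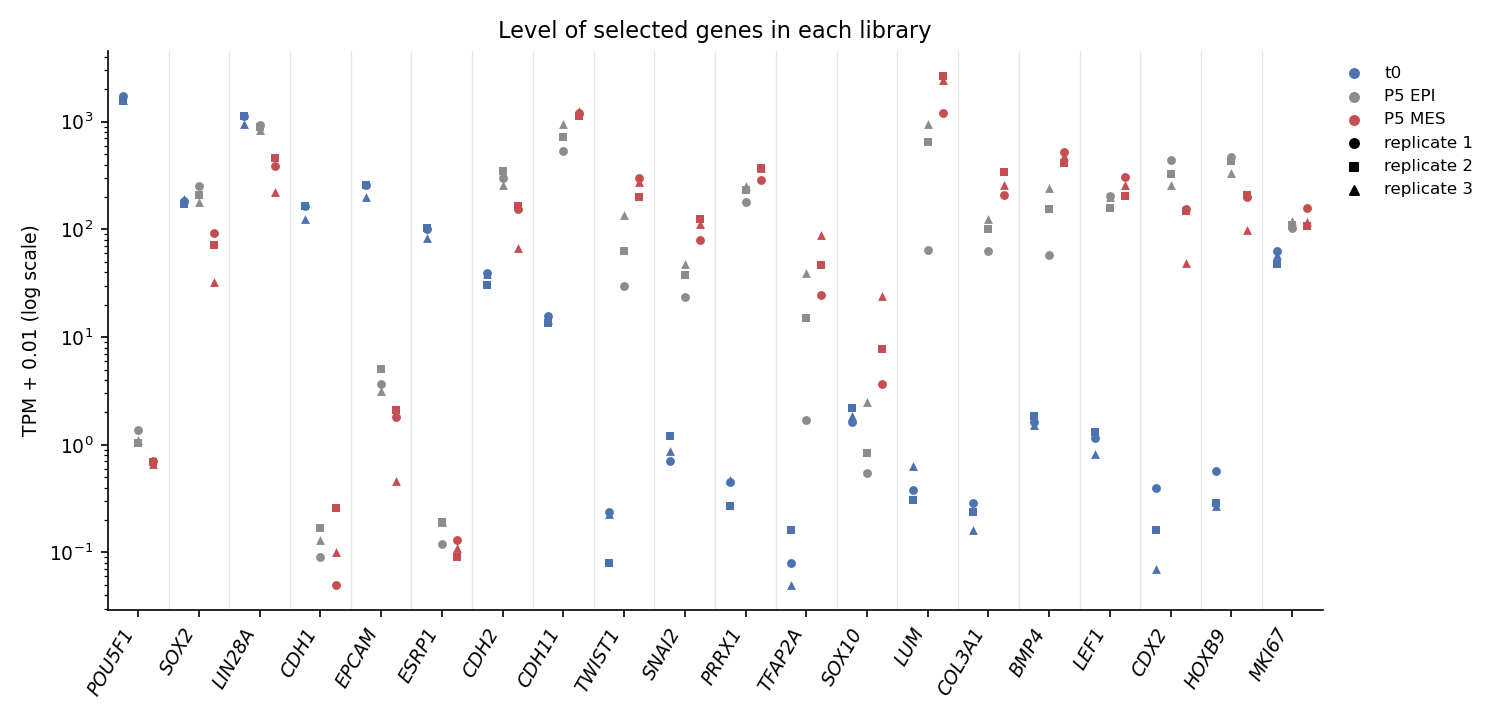
Levels of 20 genes in each library, as TPM plus 0.01 on a log scale, for t0 (blue), P5 EPI (gray) and P5 MES (red), with a marker shape for each replicate. *POU5F1*, *CDH1*, *EPCAM* and *ESRP1* are low in every P5 library, and *CDH11*, *TWIST1*, *SNAI2*, *LUM*, *COL3A1* and *BMP4* are higher in each P5 MES library than in the P5 EPI library of the same replicate.

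Among the 25 gene lists, the *HOX* genes had the largest median change. All 39 were tested, 35 rose, where 9.1% of all tested genes did, and the other 4, which include *HOXA13*, *HOXB1* and *HOXB13*, had larger values in P5 MES but a mean under 100 normalized counts. *HOXA13* reached that mean and passed without replicate 1 (fitted change 7.13) and without replicate 3 (8.47). Their median change was 8.97, or 8.63 with the 17 genes near 0 in t0 placed at their bound, and their sum went from 3.55 TPM (SD 0.999, n = 3) to 1937 TPM (SD 585). *HOXB9*, of the trunk group, had 0.56, 0.28 and 0.26 TPM in t0 and 198.6, 210.2 and 98.7 TPM in P5 MES, a rise of 8.7 with an SE of 0.23. *HOXA10*, of the lumbar to sacral groups, rose by 10.26 to 80.9, 202.0 and 100.6 TPM. Summed by paralogue number in P5 MES replicates 1, 2 and 3, *HOX1* to *HOX4* stood at 496.9, 454.3 and 239.6 TPM and *HOX5* to *HOX9* at 1210, 1211 and 814.9 TPM. *HOX10* and *HOX11* stood at 333.3, 702.6 and 243.6 TPM and *HOX12* and *HOX13* at 3.9, 94.2 and 7.51 TPM. The most posterior genes thus depended on replicate 2: *HOXD13* had 1.47, 13.7 and 1.23 TPM in P5 MES and 1 count over the t0 libraries, a ratio of 848 (95% counting interval 152 to 33505). It did not pass without replicate 2 (fitted change 9.46), where its mean dropped under the minimum. *HOX* clusters carry antisense transcripts, so single values share the strand uncertainty given above.

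**Figure D4:**
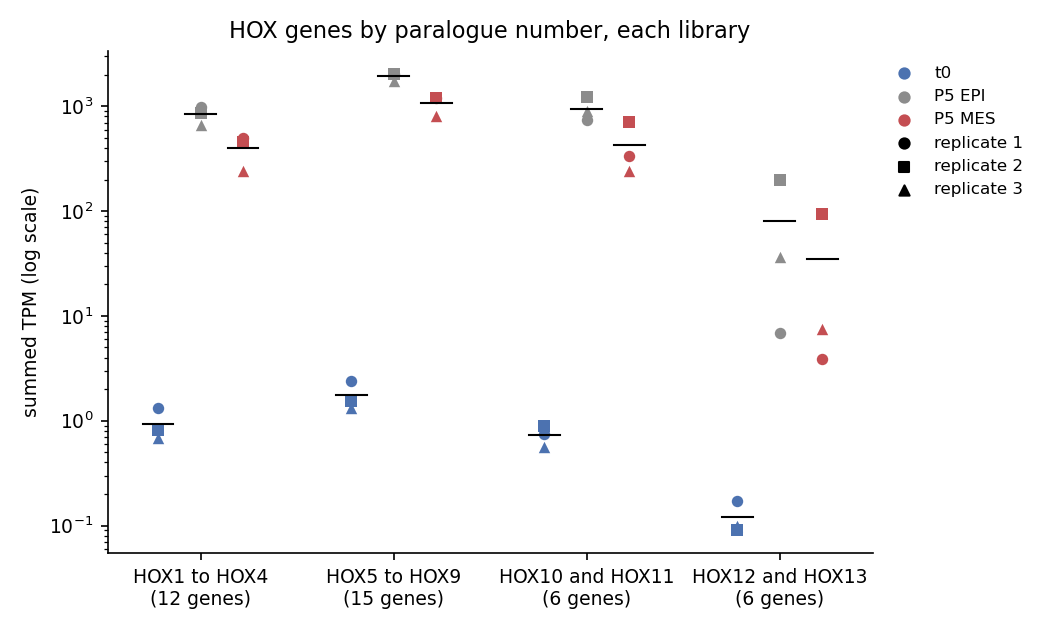
Summed TPM (log scale) of the 39 *HOX* genes grouped by paralogue number, 1 point per library with a marker shape for each replicate and a bar at the group mean. In P5 MES the *HOX12* and *HOX13* sum is 94.2 TPM in replicate 2 and 3.9 and 7.51 TPM in replicates 1 and 3.

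Partners and upstream regulators of *HOX* genes moved in both directions. All 12 genes of that list were tested, 4 rose, 2 fell (9.1% of all tested genes rose and 11.1% fell) and 6 did not pass, with a median change of 0.57. *CDX2*, which opens posterior *HOX* genes, had 0.39, 0.15 and 0.06 TPM in t0 and 155.0, 146.9 and 49.2 TPM in P5 MES. The TALE cofactor genes *MEIS1*, *MEIS2* and *PKNOX2* rose by 5.96, 6.85 and 2.81, while *MEIS3* fell by 1.81. *MEIS3* did not pass without replicate 2 (-1.87), without replicate 3 (-1.18), with no replicate block (-1.6) or with only the compared libraries in the fit (-1.76).

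Many BMP genes rose. Of 24 listed 23 were tested, 13 rose (9.1% of all tested genes did) and the other 10 did not pass, with a median change of 1.93, and the sum went from 439 TPM (SD 19.3, n = 3) to 1544 TPM (SD 140). The ligand gene *BMP4* had 1.61, 1.85 and 1.5 TPM in t0 and 526.1, 415.2 and 481.4 TPM in P5 MES, and *BMP5* rose by 8.86. Genes for secreted antagonists rose with the ligands, *GREM1* by 7.14 and *NOG* by 5.92. The target genes *ID1*, *ID2* and *ID4* rose by 1.93, 2.04 and 2.82, while *ID3*, the most abundant gene of the list in every t0 library, did not pass, with 170.2, 159.4 and 186.1 TPM in t0 and 224.5, 151.6 and 337.9 TPM in P5 MES (0.24, SE 0.22; -0.02 without replicate 3). No BMP was among the labelled factors.

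The TGF-beta and Nodal list had no common direction: all 29 genes were tested, 8 rose, 5 fell (9.1% of all tested genes rose and 11.1% fell) and 16 did not pass, with a median of -0.12. The rises were led by the ligand genes *TGFB2* (5.38) and *GDF11* (2.09), the signal transducer gene *SMAD3* (2.53) and *LTBP1* (2.01), for a protein that holds TGF-beta in the matrix. *SKIL* and *SMAD7*, both feedback inhibitors, fell by 1.92 and 1.85, and *FST*, for an activin antagonist, by 2.15. The number of risers was 4 without replicate 2 and 5 without replicate 3.

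WNT genes changed in both directions. Of 45 listed 42 were tested, 18 rose, 10 fell (9.1% of all tested genes rose and 11.1% fell) and 14 did not pass, with a median change of 1.18. The target genes *LEF1* and *AXIN2* rose by 8.08 and 4.39, *LEF1* to 306.4, 203.8 and 256.5 TPM, and the feedback inhibitor genes *NKD1* and *NOTUM* by 5.88 and 8.43. Noncanonical *WNT5A* rose by 6.01 to 172.1, 301.6 and 108.4 TPM. Among receptors *FZD10* rose by 7.36 while *FZD5* and *FZD7* fell by 5.84 and 2.41, and the secreted antagonist genes *SFRP1* and *SFRP2* fell by 4.36 and 4.72 from t0 means of 578 and 357 TPM. Several targets were much higher in replicate 1 of P5 MES than in the others: *DKK1* had 163.9, 5.69 and 26.5 TPM, *SP5* 134.7, 22.1 and 20.2 TPM, and *NOTUM* 89.9, 8.5 and 25.9 TPM. Even their lowest MES value exceeded every t0 value, the highest of which was 1.24 TPM for *SP5*. *APCDD1*, for a membrane WNT inhibitor and 1 of the 5 largest rises in TPM, was more even, at 916.8, 662.5 and 660.0 TPM after 7.3, 7.67 and 10.5 TPM in t0.

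In the FGF list 31 of 32 genes were tested, 5 rose, 9 fell (9.1% of all tested genes rose and 11.1% fell) and 17 did not pass, with a median of -0.26. All 4 receptor genes fell, *FGFR4* by 3.51, *FGFR3* by 3.44, *FGFR2* by 1.84 and *FGFR1* by 1.09, and *FGFR1* remained the most abundant at 158.8, 192.2 and 143.1 TPM. Without replicate 3 *FGFR1* changed by -0.97, under the minimum. The ligand gene *FGF2*, whose protein was added to the medium, fell by 3.57, and *FGF10* rose by 6.14. *FGF17* and *FGF8*, of the posterior growth zone, were set apart by replicate 1, with 55.5, 4.89 and 4.32 TPM for *FGF17* and 18.7, 0.15 and 0.37 TPM for *FGF8* in P5 MES. *FGF17* rose by 5.11 and did not pass without replicate 1 (3.47) or with only the compared libraries in the fit (4.95). *FGF8* did not pass (2.7, SE 1.1), and without replicate 1 its change was -0.12.

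Receptor genes for migration and guidance went in both directions. All 40 were tested, 20 rose, 5 fell (9.1% of all tested genes rose and 11.1% fell) and 15 did not pass, with a median change of 1.32. Among ephrin receptor genes *EPHA1* fell by 9.23 from a mean of 111 TPM, and 5 rose, among them *EPHA3* by 6.51 and *EPHA4* by 3.54. The ligand gene *EFNB2* rose by 4.6. The semaphorin receptor genes *NRP1* and *NRP2* rose by 4.94 and 2.33, *NRP1* with 79.1, 11.7 and 17.1 TPM and so mostly in replicate 1. *SLIT3*, for a repulsive ligand, rose by 5.76. The chemokine receptor gene *CXCR4* rose by 3.34 while its ligand gene *CXCL12* fell by 2.65. Among integrin genes the laminin receptor subunit *ITGA6* fell by 3.18 and the fibronectin receptor subunit *ITGA5* rose by 2.16 to 61.3, 68.0 and 51.2 TPM.

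Proliferation genes changed little. All 30 were tested, 2 rose, 1 fell and 27 did not pass, where 20.2% of all tested genes passed, and the median change was 0.11. Their sum was 4977 TPM in t0 (SD 281, n = 3) and 5663 TPM in P5 MES (SD 44.1). *TYMS*, for thymidylate synthase, rose by 1.27, *MKI67* by 1.09 and *BUB1*, for a spindle checkpoint kinase, fell by 1.09. Without replicate 1 *MKI67* stood at 1.0 and did not pass. Of 20 genes for cell cycle brakes, cyclins and MYC proteins 18 were tested, 5 rose and 2 fell, the latter at the 11.1% of all tested genes, where 9.1% rose. The risers were the kinase inhibitor genes *CDKN1A* (1.12) and *CDKN1C* (1.59), *CCND2* (1.31), *CCNE2* (2.32) and *RB1* (1.29), and *CDKN1A* missed without replicate 1 (0.89) and without replicate 3 (1.1). *MYC* and *MYCL* fell by 2.7 and 3.33. DNA methylation enzymes went in both directions: 9 of 10 were tested, 3 rose, 2 fell and 4 did not pass, where 9.1% of all tested genes rose and 11.1% fell. *UHRF1*, *TET2* and *TET3* rose by 1.35, 2.21 and 1.25, and *DNMT3B* and *TET1* fell by 4.02 and 1.3. *DNMT3B*, the de novo methyltransferase gene of pluripotent cells, went from 562.2, 432.7 and 452.6 TPM to 39.4, 38.3 and 26.6 TPM, while the maintenance enzyme gene *DNMT1* changed by 0.56 and did not reach 2-fold.

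Markers of other cell types were read as whole lists, and their part in the changes above was not tested. The 18 epithelial progenitor markers summed to 226.7, 227.7 and 234.7 TPM in t0 and to 559.3, 392.2 and 237.0 TPM in P5 MES replicates 1, 2 and 3, with *SOX2* most abundant in t0 and *HHIP* or *CDX2* in P5 MES. Of the 17 tested 4 rose and 3 fell, where 9.1% of all tested genes rose and 11.1% fell, *HHIP*, for a hedgehog antagonist, by a rise of 9.55 and *POU3F2* by 5.86, while *SOX3* and *OLIG2* fell by 4.72 and 2.69. The proneural gene *NEUROG2* had 0 counts in t0 and 8.03, 1.14 and 0.58 TPM in P5 MES, at least 61.0-fold higher but under the minimum mean, which it reached without replicate 2 (fitted change 10.71) and without replicate 3 (11.19). The sum was thus made of different genes in the compared groups, and in P5 MES it was highest in replicate 1. Neuron markers summed to 281.1, 351.8 and 387.1 TPM in P5 MES and 242.6, 225.6 and 199.9 TPM in t0, led by *TUBB3* in t0 and in MES replicate 1 and by *NEFM* in MES replicates 2 and 3. Of 16 neuron markers 13 were tested and 3 rose (9.1% of all tested genes did), *NEFL* (1.18), *NEFM* (2.62) and *SNAP25* (3.62), and *NEFM* missed without replicate 2 (2.62, adjusted p 0.035, edgeR quasi-likelihood, Benjamini-Hochberg).

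Mesoderm, endoderm and placode lists had small sums, at most 64.2 TPM in the 6 libraries. Paraxial mesoderm markers, 11 of 17 tested, summed to 39.4, 20.8 and 20.6 TPM in P5 MES and 24.95, 34.11 and 29.68 TPM in t0, with *LFNG* most abundant in 5 of the 6 libraries and *MEOX2* in MES replicate 3, and 4 of the 17 genes at 0 in each MES library. *TBXT*, the brachyury gene, rose by 4.52 to 13.03, 2.41 and 1.98 TPM and *MEOX2* by 5.96, while *TCF15* fell by 4.04. *LFNG* did not pass with all replicates (-0.9) and passed without replicate 1 (-1.27). Without replicate 1 *TBXT* did not pass (3.9), nor did *MEOX2* without replicate 3 (5.06). Lateral mesoderm and endothelium markers, 8 of 16 tested, summed to 58.7, 56.3 and 51.4 TPM in t0, mostly *KDR*, and to 11.1, 9.25 and 8.71 TPM in P5 MES, with *TEK* or *HAND1* most abundant. *KDR*, for a vascular growth factor receptor, fell by 8.01, and *TEK*, for an endothelial receptor, did not pass (-1.24) but did without replicate 1 (-1.9), in DESeq2 (-1.25), with no low-count filter (-1.22) and at an FDR of 5%. Endoderm markers, 6 of 14 tested, summed to 41.0, 64.2 and 31.5 TPM in P5 MES and 25.1, 23.5 and 21.0 TPM in t0, with *CER1* and *CXCR4* leading in P5 MES and *FOXA3* in t0. Of the 6 tested *CXCR4* and *CER1* rose, by 3.34 and 6.03, and *FOXA3* fell by 8.73, where 9.1% of all tested genes rose and 11.1% fell. The defining endoderm gene *SOX17* had 0 TPM in all 6 libraries and *FOXA2* at most 0.02 TPM in P5 MES. Surface ectoderm and placode markers, 11 of 14 tested, summed to 35.9, 30.7 and 49.0 TPM in P5 MES and 37.6, 31.1 and 33.2 TPM in t0, with *KRT7* or *SIX4* most abundant in t0. *KRT7* fell to 3 counts over the P5 MES libraries, a ratio of 473 (95% counting interval 162 to 2294). Of the 11 tested 3 rose and 1 fell (9.1% of all tested genes rose and 11.1% fell), and 1 rose without replicate 1.

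The EPI fraction of the same passage shows which changes were shared. It was compared with the same t0 libraries, so the results of both fractions are given side by side and not as independent. In P5 EPI against t0, 3518 genes passed (18.3%), 1502 higher (7.79%) and 2016 lower (10.5%), and no gene passed in opposite directions in the fractions. List medians in P5 EPI were -5.67 for pluripotency (P5 MES -6.72), -5.59 for junction genes (P5 MES -6.43), 4.16 for crest specifiers (P5 MES 4.41) and 10.03 for *HOX* genes (P5 MES 8.97). For the mesenchymal transition regulators it was 3.74 in P5 EPI and 4.13 in P5 MES. For mesenchymal structural genes it was 0.16 in P5 EPI and 1.8 in P5 MES. Even so, 15 of the 35 structural genes rose in P5 EPI and 5 fell, where 7.79% of all tested genes rose and 10.5% fell. The structural sum was 7597 TPM in P5 EPI (SD 2322, n = 3), between 2124 TPM in t0 and 10932 TPM in P5 MES. *CDH1* and *POU5F1* were near 0 in P5 EPI as well, at means of 0.12 and 1.157 TPM. The labelled epithelial fraction thus lacked the E-cadherin of the t0 epithelium and had N-cadherin at a mean of 301 TPM (SD 45.7, n = 3).

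The number of genes called in the direct test of P5 MES against P5 EPI depended on the method. At an FDR of 1% edgeR called 0 genes (0.0%), although 5649 of 19272 had an unadjusted p under 0.05, the lowest adjusted p being 0.011. With no low-count filter edgeR called 642, and DESeq2 with the replicate block called 828. At an FDR of 5%, with the same fold and mean minimums, edgeR called 790 (4.1%), 436 higher in P5 MES (2.26%) and 354 lower (1.84%). These calls rest on all 3 replicates. Before the fold and mean minimums 2435 genes were under an FDR of 5%. Without replicates 1, 2 and 3 in turn that count was 1437, 0 and 724. Without replicate 2, 3659 genes had an unadjusted p under 0.05 (edgeR). The count was 3763 with only the compared libraries in the fit, 3447 in DESeq2 and 1579 with no replicate block. The list counts and adjusted p that follow share this dependence on the replicates and the fit. By that 5% rule 17 of 35 mesenchymal structural genes, 10 of 25 crest specifiers and 10 of 38 collagens were higher in P5 MES, and 2, 4 and 1 of the same lists were lower. For the *HOX* genes 15 of 39 were lower and for the junction genes 6 of 33, with no member of either list higher. Contractile *TAGLN* was higher by 2.26 (adjusted p 0.013, edgeR quasi-likelihood, Benjamini-Hochberg; 3 of 3 pairs), *SNAI2* by 1.58 (0.011) and *COL3A1* by 1.49 (0.011). *SOX10* was higher by 3.1 (adjusted p 0.015, edgeR quasi-likelihood, Benjamini-Hochberg; 3 of 3 pairs), with 0.54, 0.83 and 2.49 TPM in P5 EPI. *SOX2* was lower by -1.75 (adjusted p 0.014, same test, 3 of 3 pairs), having changed by only 0.04 in P5 EPI against t0, and *LIN28A* by -1.35 (0.011), *CDX2* by -1.7 (0.012) and *HOXB9* by -1.33 (0.011). *ETS1* and *SNAI1* passed against t0 in P5 MES and not in P5 EPI, and in the test of the difference *ETS1* was 1.84 higher in P5 MES (adjusted p 0.02, edgeR quasi-likelihood, Benjamini-Hochberg) and *SNAI1* 1.32 higher (0.079).

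Replicates spread more in P5 MES than in t0. Over genes the root mean square log2 distance between replicate pairs was 0.27 to 0.32 in t0 and 0.51 to 0.61 in P5 MES. Deviations from the group mean moved together across genes in P5 MES and P5 EPI libraries of the same replicate number (Pearson correlations of 0.562 to 0.657, over genes, which are not independent replicates) and hardly between t0 and P5 MES (-0.071 to 0.030). The mitochondrial share of counts was 1.09%, 3.75% and 4.47% in t0 and 3.25%, 1.58% and 1.96% in P5 MES, and its part was not tested. Leaving out replicate 2 lowered the number of passing genes most, to 3264, against 3890 without replicate 1 and 3553 without replicate 3.

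Other groups of the series place the P5 MES levels on the course of the differentiation, here as means without a test. The pluripotency sum was 4999 TPM at 36 h (SD 1648, n = 3), between t0 and P5 MES, with *POU5F1* still at a mean of 1049 TPM and *CDH1* at 32.1 TPM. Junction genes summed to 2146 TPM at 36 h (SD 572), so most of that loss lay between 36 h and passage 5. *TWIST1* had a mean of 0.407 TPM and *LUM* of 0.527 TPM at 36 h. *SNAI1* had a mean of 53.8 TPM at 36 h, above its value in every P5 MES library, and *SNAI2* of 26.1 TPM, below its value in every P5 MES library. The 36 h libraries were uneven, with transition regulator sums of 150.7, 173.07 and 405.85 TPM in replicates 1, 2 and 3. In the MES fraction of passage 8, structural genes summed to 18018 TPM (SD 4415) and collagens to 4244 TPM (SD 835), above the P5 MES sums of 10932 and 3481 TPM. *COL1A1* had a mean of 219 TPM in P8 MES (SD 83.8) against 37.6 TPM in P5 MES (SD 18.01), *FN1* 570 TPM (SD 93.4) against 176 TPM (SD 7.52) and *MITF* 29.7 TPM (SD 5.5) against 6.31 TPM (SD 2.25). *LUM* was lower, at 659 TPM (SD 512) against 2099 TPM (SD 785). The *HOX12* and *HOX13* sum was 317 TPM in P8 MES (SD 119) and 35.2 TPM in P5 MES (SD 51.1).

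**Figure D5:**
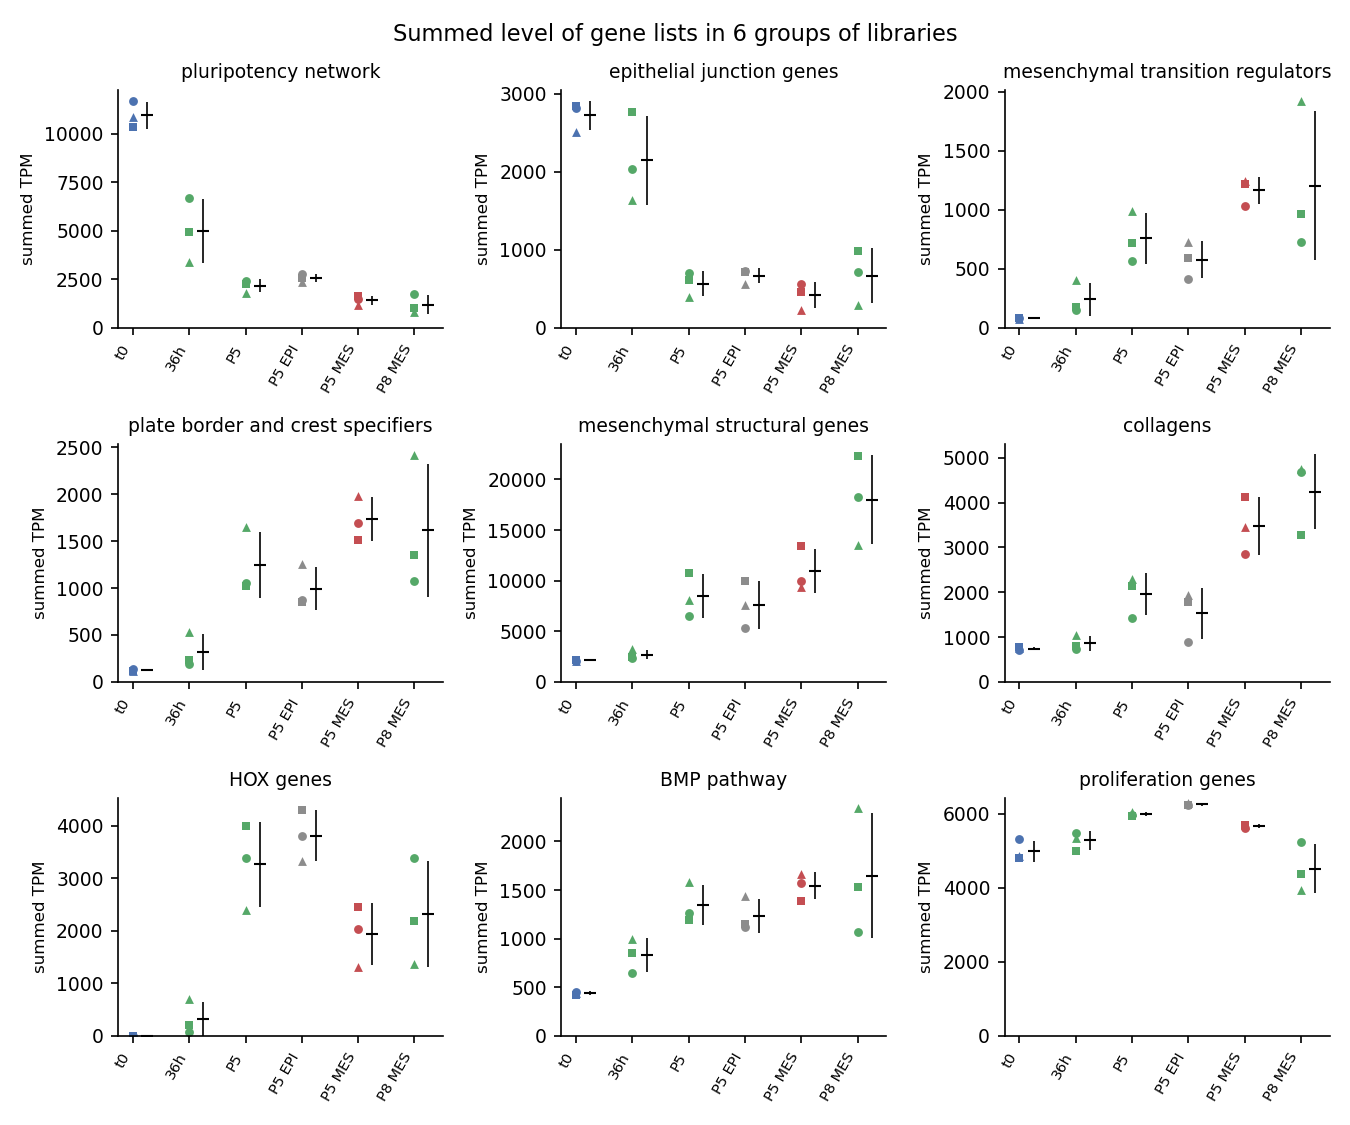
Summed TPM of 9 gene lists in the libraries of t0, 36 h, unsorted P5, P5 EPI, P5 MES and P8 MES, with 1 point per library, a marker shape for each replicate, and the mean with its SD as a black bar beside them (n = 3 per group). The pluripotency and junction sums are lowest in the passaged groups, the structural sum reaches 10932 TPM in P5 MES and 18018 TPM in P8 MES, and the group means of the proliferation sum lie between 4513 and 6248 TPM.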

How the data were processed

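Bulk mRNA was read in 47 libraries of WA09 cells, as 75-base single-end poly(A) libraries. Per the submitters' processing notes, the authors trimmed reads with cutadapt 1.16, aligned them to GRCh38 with STAR 2.5.2b and quantified genes with RSEM 1.3.0. The annotation release, strand setting and filters are not given in the sources used here. The deposited values of each library are expected counts, of which 9.33% are not whole at a tolerance of 0, and TPM. FPKM was not used here. Of 58051 genes listed, 57447 matched a GENCODE 29 symbol, and the 604 without one were counted and not named.

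Rounded expected counts of t0, P5 EPI and P5 MES (3 libraries each, 43326535 to 61252964 counts) were fitted together in edgeR 4.0.16 (R 4.3.3, limma 3.58.1) with TMM scaling, filterByExpr, the quasi-likelihood F-test and the replicate number as a block. The comparisons were P5 MES against t0, P5 EPI against t0 and P5 MES against P5 EPI, with Benjamini-Hochberg adjustment within each. The biological coefficient of variation was 16.97%. Normalized counts are rounded counts divided by TMM size factors over all 47 libraries. The pairing was checked by correlating deviations from group means across genes. The fit was also run on simulated data, and no result given here draws on the outcome.

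A named gene is a member of 1 of 25 lists (610 entries, 582 genes), 1 of the 10 largest rises or falls by log2 change that passed with the same direction in 3 pairs, or 1 of the 5 largest rises or falls in TPM. The members and lists were chosen with earlier results of these data known. 11 alternatives were tried: no replicate block, DESeq2 1.42.0, its size factors in edgeR, total counts, no low-count filter, only the compared libraries, each replicate left out, an FDR of 5%, and no minimum mean. Promoters were RefSeq windows on GRCh38.p14. Results of some list members are not reported.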

Additional observations from a re-analysis of the deposited data

How the results depend on the processing

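For P5 MES against t0, 151 of 186 named genes had the same result under all 11 alternatives. The 3893 passing genes became 6218 with no minimum mean, 3609 of them lower, and 3264 without replicate 2. For P5 EPI against t0, no minimum mean gave 5719, with 2301 higher and 3418 lower. P5 MES against P5 EPI had 0 at an FDR of 1% and 790 at an FDR of 5% (436 higher, 354 lower). At 1% DESeq2 called 828 (441 higher, 387 lower), and 642 passed with no low-count filter (363 higher, 279 lower). Genes under an FDR of 5% before the other minimums went from 2435 to 0 without replicate 2 and 724 without replicate 3. Their number was 1437 without replicate 1 and 1579 with no replicate block. It was 3447 in DESeq2 and 3763 with only the compared libraries in the fit. A sign changed for 4 named genes, none of which passed: *NGFR* (-0.24) was 0.42 with no replicate block and 0.56 without replicate 1 (-0.78 without replicate 2), *COL1A1* (0.13) was -0.39 without replicate 1 (0.53 without replicate 3), *FGF8* (2.7) was -0.12 without replicate 1 (4.23 without replicate 2), and *ID3* (0.24) was -0.02 without replicate 3 (0.53 without replicate 2).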
